A study of Mus musculus with 12 samples.

Results

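The galectin genes described here are Lgals1, Lgals3, Lgals4, Lgals8 and Lgals9, together with Lgals3bp, which encodes a binding protein of galectin-3. The members are set by gene symbol, with no threshold on their values, and all 6 were found among the 18430 genes named in the Aroma table, each with 1 row. Their expression was compared between monocytes of the bone marrow (BMDM) and microglia of the brainstem (BSM), the infiltrating and the resident mononuclear phagocytes between which the study sought distinguishing markers. Both cell types came from untreated C57BL/6 mice aged 6 weeks, with no transgene or deletion, and were sorted by flow cytometry as CD11b+ Ly6G- cells. BMDM were taken as high for CD45 and positive for CD115, and BSM as low for both. Every array held RNA from a pool of mice, amplified and hybridized to the Affymetrix Mouse Exon 1.0 ST array, with 3 arrays per cell type. Replicate 1 of each cell type is labelled female and replicates 2 and 3 male. A sample sheet of the study also gives the sample used as replicate 1 of each cell type as female, while its text speaks of male mice. The sheet does not cover replicates 2 and 3. The same 6 arrays were summarised by 2 programs, and these were never pooled. Aroma values, converted to log2, give the main results, and the Expression Console values served as a check.

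Galectins are small lectins that bind beta-galactosides, the galactose-containing ends of the sugar chains on glycoproteins and glycolipids. They are made without a signal sequence, leave the cell by an unconventional route, and act both outside the cell, where they cross-link surface glycoproteins, and inside it, where they bind glycans exposed when a vesicle membrane breaks. Galectin-1 (Lgals1) carries a lone sugar-binding domain and works as a dimer, galectin-3 (Lgals3, long known as the macrophage antigen Mac-2) joins such a domain to a repetitive tail, and galectins 4, 8 and 9 carry a pair of different domains on a chain. In the brain, galectin-3 is best known as a protein of activated microglia, and galectin-9 as a ligand of the receptor TIM-3.

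The 3 members with both a called difference and an entry among the RefSeq promoter sequences (GRCm38.p6) are shown so that the gene that was lower in BSM can be set beside the genes that were higher. Each runs from 250 bases before the annotated start to 50 after it, 5′ to 3′ on the gene's strand. In Lgals3 capitals mark GC boxes (GGGCGG on either strand), and in Lgals9 a match to the core of the interferon-stimulated response element (AANNGAAAC on either strand). Lgals8 has no capitals because no motif searched was found in it.
Lgals3, chr14:47373610-47373909, + strand: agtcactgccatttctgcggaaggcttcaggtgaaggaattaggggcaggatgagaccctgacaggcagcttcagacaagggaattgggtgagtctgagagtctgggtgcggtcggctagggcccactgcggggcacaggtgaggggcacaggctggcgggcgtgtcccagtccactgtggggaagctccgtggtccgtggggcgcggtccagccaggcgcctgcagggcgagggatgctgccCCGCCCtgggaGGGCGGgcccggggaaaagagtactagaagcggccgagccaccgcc
Lgals8, chr13:12461689-12461988, - strand: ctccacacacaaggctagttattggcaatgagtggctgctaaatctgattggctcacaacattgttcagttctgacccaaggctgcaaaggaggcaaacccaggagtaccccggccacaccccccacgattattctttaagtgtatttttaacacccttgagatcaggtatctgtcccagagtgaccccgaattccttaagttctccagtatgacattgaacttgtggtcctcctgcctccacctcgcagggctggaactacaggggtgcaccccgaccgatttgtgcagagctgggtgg
Lgals9, chr11:78984875-78985174, - strand: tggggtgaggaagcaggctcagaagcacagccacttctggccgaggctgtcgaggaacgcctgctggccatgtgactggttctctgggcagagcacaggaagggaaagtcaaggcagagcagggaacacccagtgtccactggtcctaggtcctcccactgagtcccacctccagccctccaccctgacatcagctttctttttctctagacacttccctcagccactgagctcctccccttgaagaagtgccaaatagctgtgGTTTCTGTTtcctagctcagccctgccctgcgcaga

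The Lgals3 promoter was the most GC-rich of the 5 available, at 67%, where the median of 27025 promoters was 52.7%, and it held 2 GC boxes, at -7 and 5 relative to the start. Lgals4 also held 1 GC box, at 30, whereas Lgals3bp, Lgals8 and Lgals9 held none. A GC box was present in 35.9% of all promoters. Lgals9 and Lgals3bp each held 1 match to the interferon-stimulated response element, at 15 and -14, and 5.82% of all promoters did. None of the 5 held a TATA box (TATAAA, 14.2% of promoters) or an AP-1 site (TGANTCA, 7.93%). The core bound by the myeloid factor PU.1 (GAGGAA, 28.3%) was found 2 times in Lgals9, 1 time each in Lgals3bp and Lgals4, and not in Lgals3 or Lgals8. No match of one motif overlapped that of another, and a match describes the sequence only. The motifs were chosen after the sequences had been seen. Lgals1 had no entry in the table.

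The arrays separated the cell types as labelled. All 11 microglia markers measured were higher in BSM and all 7 monocyte markers were lower. The summed linear intensity of the microglia list was 420 to 531 in BMDM and 47482 to 49597 in BSM, and that of the monocyte list 21702 to 22668 in BMDM and 165 to 205 in BSM. All 13 neutrophil and granule markers were lower in BSM, with a summed intensity of 15444 to 18040 in BMDM and 298 to 407 in BSM. Of 7 erythroid markers, 5 were lower in BSM and 1 higher (summed 5323 to 8169 and 252 to 414). The markers of brain and border cells were mixed. Higher and lower in BSM were 2 and 1 of 7 neuron markers (summed 163 to 183 in BMDM and 198 to 232 in BSM), 4 and 1 of 7 astrocyte markers (173 to 175 and 384 to 388), and 3 and 2 of 7 oligodendrocyte markers (428 to 490 and 416 to 459). Of 8 endothelial and mural markers 1 was higher and 2 lower (337 to 385 and 252 to 279), and of 8 border macrophage markers 3 and 2 (4032 to 4234 and 898 to 982). Most of the border macrophage sum in BMDM came from F13a1 (11.90, 11.93 and 11.86, log2), which is also in the monocyte list. Over all named genes, 28.4% were higher and 22.3% lower. Slc1a3 of the astrocyte list (3.53, log2) and Stab1 of the border macrophage list (4.05) stood out as higher in BSM, and were named after their values were seen. The median row read 5.42 to 5.50 (log2) on BMDM arrays and 5.61 to 5.703 on BSM arrays, and the median difference over all rows was 0.18, so a value close to this is where the middle of the table lay.

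Of the 6 genes, 2 were lower in BSM (Lgals1 and Lgals3), 2 were higher (Lgals8 and Lgals9) and 2 did not pass (Lgals3bp and Lgals4), by limma with an adjusted p of 0.05 over all 21837 rows. Over all rows, 21.6% were called lower and 28.0% higher, so the counts of calls were close to the background. The split of all rows depended on the scale: 6120 rows were higher and 4718 lower as deposited, whereas median centring of the arrays gave 3253 higher and 5792 lower. The falls of Lgals1 and Lgals3 were about 50-fold, and called rows that were at least 32-fold lower in BSM made up 0.385% of the table. That cut lies under both falls, and the other galectin genes differed by at most 2.20-fold (Lgals8). In 4 of the 6 genes (Lgals1, Lgals3, Lgals8 and Lgals9) the cell types did not overlap, as in 60.8% of all rows.

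**Figure D1:**
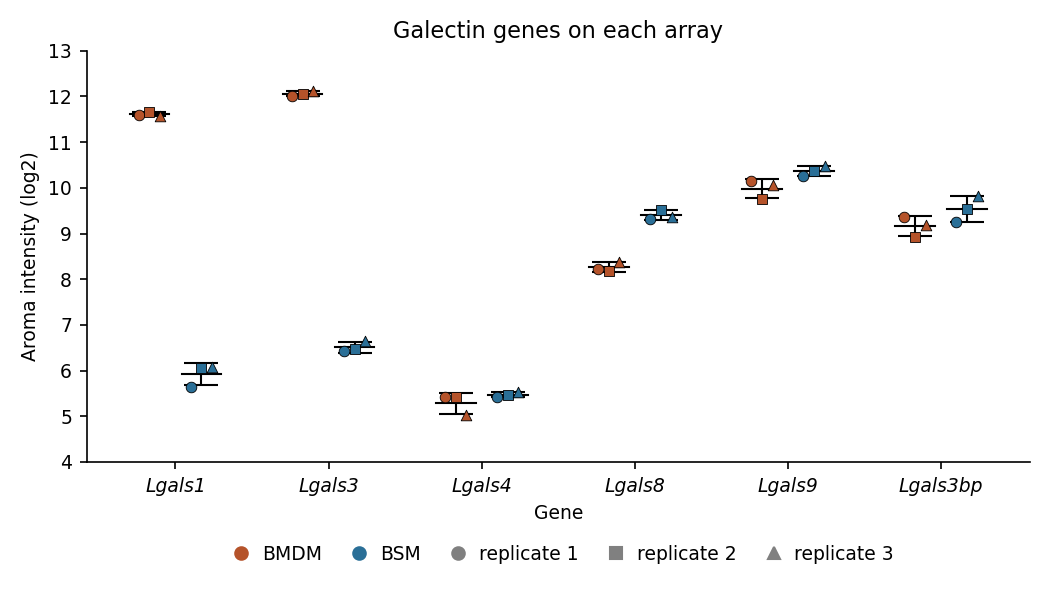
Log2 Aroma intensity of each galectin gene (x axis) on every array, with BMDM in orange and BSM in blue, a marker shape for each replicate, and lines for the mean and SD of 3 arrays. Lgals1 and Lgals3 lie above 11.5 on all BMDM arrays and below 6.7 on all BSM arrays, whereas the other 4 genes differ far less.

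Lgals1, the dimeric galectin known for cross-linking glycoproteins on T cells, read 11.59, 11.66 and 11.57 (log2) in BMDM replicates 1, 2 and 3, and 5.64, 6.06 and 6.07 in BSM replicates 1, 2 and 3. The 3 BMDM arrays lay close together, all far above the BSM arrays, and BSM replicate 1 was the lowest of its group. The log2 difference, BSM minus BMDM, was -5.69 (SE 0.14, 95% interval -6.00 to -5.37), so that Lgals1 was 51.5-fold lower in BSM (limma adjusted p = 2.1e-08). It held rank 48 of 21837 rows counted from the most negative difference. Its BSM readings lay near the median row of those arrays. The files carry no detection call, so these readings include background. RefSeq also lists a pseudogene, Lgals1-ps1, and whether the array's probes tell the pair apart was not tested.

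Lgals3, the chimeric galectin, read 12.002, 12.05 and 12.11 in BMDM and 6.42, 6.46 and 6.65 in BSM. Again no BSM array came near a BMDM array. The log2 difference was -5.54 (SE 0.10, interval -5.78 to -5.30), a 46.6-fold lower level in BSM (limma adjusted p = 9.7e-09), at rank 53 from the most negative. In linear units its mean intensity was 4256 in BMDM and 91.5 in BSM. The Expression Console table gave 11.53, 11.52 and 11.54 in BMDM and 5.79, 6.12 and 6.28 in BSM, or 44.3-fold. No Expression Console row was matched to Lgals1, which was therefore not checked there.

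The differences of Lgals1 and Lgals3 were alike in size. Within an array, the fall of Lgals3 was smaller by 0.14 on the log2 scale, and an exact two-sided permutation test over the 6 arrays gave p = 0.3. With 3 arrays against 3 this test cannot go below 0.1, so it could not have passed. The monocyte, neutrophil and erythroid lists, summed above, moved with both genes, and their part in these differences was not tested. In such bulk samples, fewer cells that express a gene and less of its RNA per cell cannot be told apart.

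Lgals8, the galectin that binds glycans on damaged vesicles and recruits an autophagy receptor, went the other way. It read 8.23, 8.19 and 8.38 in BMDM and 9.32, 9.52 and 9.37 in BSM, so that every BSM array lay above every BMDM array by more than the spread of either group. The log2 difference was 1.14 (SE 0.11, interval 0.89 to 1.38), a 2.20-fold higher level in BSM (limma adjusted p = 4.7e-05). In the Expression Console table it was 1.81-fold higher (limma adjusted p = 0.0088), and with each Aroma array centred on its median the difference was 0.95. Of all Expression Console rows, 8.38% were called higher in BSM and 20.5% lower, and of the 5 galectin genes measured by that program 1 was called in each direction (Lgals8 and Lgals3).

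Lgals9, which encodes the TIM-3 ligand galectin-9, read 10.14, 9.75 and 10.06 in BMDM and 10.27, 10.37 and 10.47 in BSM. The groups were separated by a narrow margin, with BMDM replicate 1 just under BSM replicate 1. The log2 difference was 0.38 (SE 0.13, interval 0.09 to 0.68), or 1.31-fold (limma adjusted p = 0.037). This call was weak: the difference was 0.19 with arrays centred on their medians (adjusted p = 0.29), the Expression Console groups overlapped (difference 0.23, adjusted p = 0.37), and leaving out any of 4 arrays ended the call, namely BMDM replicate 2 (0.27), BMDM replicate 3 (0.42), BSM replicate 2 (0.38) or BSM replicate 3 (0.33). Over all alternatives the adjusted p ran from 0.0028 to 0.37.

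Lgals3bp, a secreted scavenger-receptor glycoprotein that binds galectin-3 and is known to be induced by interferon, read 9.35, 8.93 and 9.20 in BMDM and 9.26, 9.54 and 9.82 in BSM. BSM replicate 1 lay between BMDM replicates, so the groups overlapped. The log2 difference of 0.38 (SE 0.17, interval -0.01 to 0.77) did not pass (limma adjusted p = 0.093). It passed without BSM replicate 1 (0.52, adjusted p = 0.036) and after a further quantile normalization (0.70, adjusted p = 0.0087), and under no other alternative. The difference was 0.19 with arrays centred on their medians (limma adjusted p = 0.44). In the Expression Console table it was 0.18 (limma adjusted p = 0.60), and the groups overlapped there too. The gene of the binding protein was thus not called lower in BSM, where that of its partner Lgals3 was 46.6-fold lower.

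Lgals4, a galectin of the gut epithelium, was dim throughout. It read 5.41, 5.42 and 5.02 in BMDM and 5.42, 5.47 and 5.53 in BSM, all close to the median row. The difference of 0.19 (SE 0.13, interval -0.11 to 0.49) did not pass (limma adjusted p = 0.25) and was the size of the shift of the whole table, and with arrays centred on their medians it was -0.00011.

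**Figure D2:**
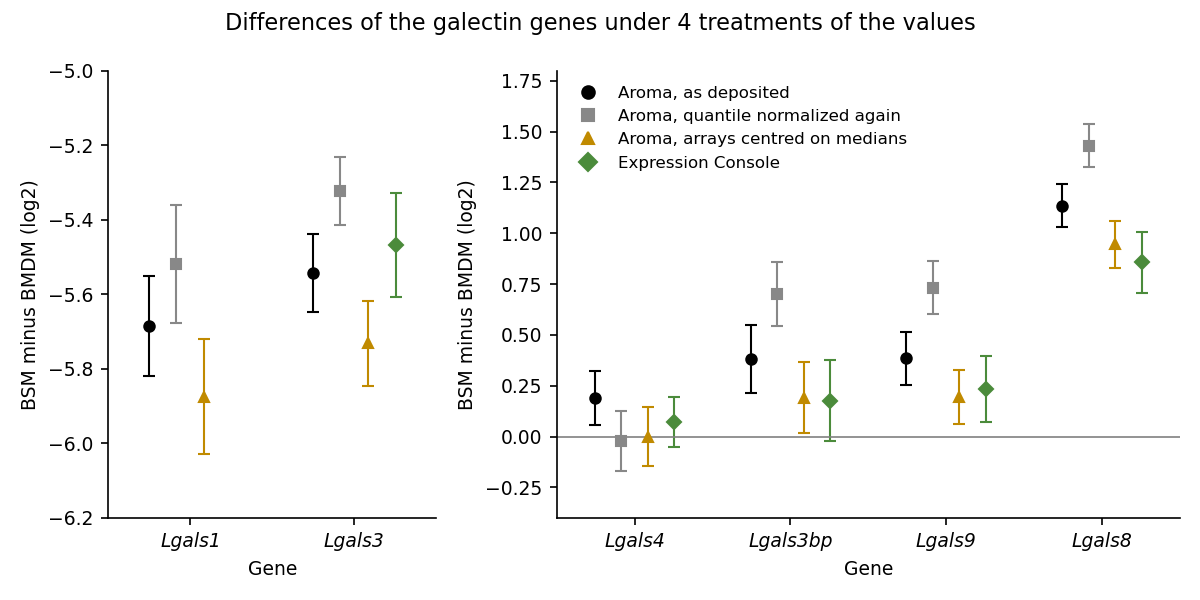
Log2 difference, BSM minus BMDM, of each galectin gene (x axis) under 4 treatments of the values, with bars for the limma SE. Lgals1 has no Expression Console point, because no row of that program was matched to it. The panels have different y ranges: the left holds Lgals1 and Lgals3, which stay between -5.87 and -5.32, and the right the other genes, of which Lgals8 stays above 0.85 while Lgals4 moves around 0.

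In the order of the differences, Lgals1 and Lgals3 came first, then Lgals4, Lgals3bp, Lgals9 and Lgals8. Of the 5 pairs of neighbours in that order, Lgals3 and Lgals4 differed by 5.73 and Lgals9 and Lgals8 by 0.75 (exact permutation p = 0.1 for both, adjusted over the pairs 0.25), the smallest p possible. Lgals4 and Lgals3bp differed by 0.19 (exact p = 0.5), and Lgals3bp and Lgals9 by 0.0036 (exact p = 0.9).

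The female and the male pools gave similar differences for the genes that moved most. For Lgals1 the difference was -5.95 between the female pools and -5.55 between the male pools, for Lgals3 -5.58 and -5.52, and for Lgals8 1.09 and 1.16. It was 0.13 and 0.51 for Lgals9, whereas the Expression Console values of Lgals9 differed in direction (-0.18 and 0.44). A limma term for sex by cell type, with 2 residual degrees of freedom, passed in 0 of 21837 rows (1551 at an unadjusted p of 0.05), and its lowest unadjusted p among the galectin genes was 0.045, for Lgals3bp (adjusted p = 0.69).

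Of the 5 other genes of the galectin fold that were measured, 3 were called higher in BSM and 0 lower, where 28.4% of all named genes were higher and 22.3% lower. These were Lgals2 (0.43), the galectin-like gene Lgalsl (0.43) and the lens protein gene Grifin (0.59). Lgals2 read 3.36, 3.52 and 3.63 in BMDM and 3.94, 3.93 and 3.94 in BSM, among the dimmest rows described here. Lgals7 (0.11) and the adipocyte galectin gene Lgals12 (0.23) did not pass. None of the 5 was called with arrays centred on their medians, where the difference was 0.24 for Lgals2, 0.24 for Lgalsl and 0.40 for Grifin. The call for Lgalsl was also lost without BMDM replicate 1 (0.37), BMDM replicate 2 (0.41) or BSM replicate 1 (0.31), and that for Grifin without BMDM replicate 2 (0.45), BSM replicate 1 (0.46) or BSM replicate 3 (0.57). Lgals6 was not matched.

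The enzymes that build or mask galectin ligands, listed with the transporter genes Slc35a1, Slc35a2 and Slc35a3, changed in both directions, and some by large amounts. Of 29 genes measured, 16 (55.2%) were higher in BSM and 8 (27.6%) lower, with a median log2 difference of 0.37, where 28.4% of all named genes were higher, 22.3% lower and the median was 0.17. By Expression Console 9 of 27 were called higher and 9 lower, with a median of 0.04. Of all Expression Console rows 8.38% were called higher and 20.5% lower, and the median of its named genes was -0.06. The sialyltransferase genes split. St6gal1, whose product adds sialic acid in the linkage known to block galectin-1 binding, read 5.43, 5.38 and 5.40 in BMDM and 8.52, 8.68 and 8.81 in BSM, 9.65-fold higher (limma adjusted p = 8.6e-08). Those BMDM readings lay near the median row and may be background. St3gal6, of the family that adds sialic acid in another linkage, was 59.8-fold higher, a ratio to BMDM readings of 4.24, 4.30 and 4.53 that lay below the median row and may be background, and the ganglioside enzyme St3gal5 5.35-fold higher. By contrast, St3gal4 was 5.15-fold and St3gal1 4.88-fold lower, and the BSM readings of St3gal4 (5.69, 5.86 and 5.98) lay near the median row. Each cell type thus had sialyltransferase genes that were higher in it.

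Among the branching enzymes of N-glycans, whose products carry more galactose ends for galectins, Mgat1, Mgat4a, Mgat4b and Mgat5 were higher in BSM. Mgat2 did not pass (-0.08, interval -0.37 to 0.20), and Mgat1 differed by 0.57 (limma adjusted p = 0.0013). Mgat4a rose from 5.36, 5.75 and 4.96 in BMDM to 10.64, 10.60 and 10.51 in BSM, a 37.4-fold difference (limma adjusted p = 1.3e-07). Those BMDM readings lay around the median row, so this fold is a ratio to readings that may be background. No Expression Console row was matched to Mgat4a. Mgat5, whose branches are the best-known galectin-3 ligands, was 2.18-fold higher, and Mgat4b differed by 0.81 (limma adjusted p = 0.0015). Mgat1, Mgat2, Mgat4b and Mgat5 were named after their values were seen. Lower in BSM were C1galt1c1, a chaperone needed to extend O-glycans (5.84-fold), and Man2a1, the Golgi mannosidase that prepares N-glycans for branching (3.38-fold).

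**Figure D3:**
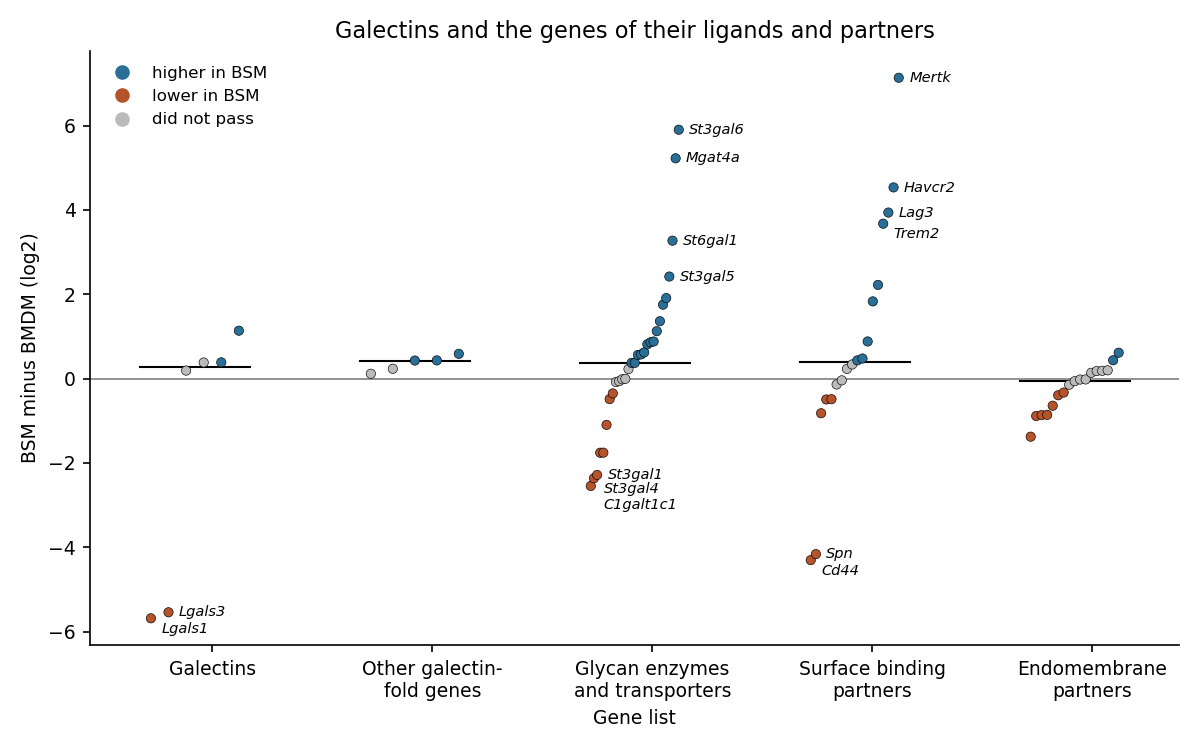
Log2 difference, BSM minus BMDM, of every measured gene in 5 lists (x axis), with 1 point per gene, blue for called higher in BSM, orange for called lower, grey for not passed, and a line at each list's median. Lgals1 and Lgals3 lie below every gene of the other lists, the lowest of which is Cd44 at -4.31.

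Of 18 genes measured for surface glycoproteins that galectins bind, 9 were higher in BSM and 5 (27.8%) lower, with a median of 0.38. Among all named genes these shares were 28.4% and 22.3% and the median 0.17, so the share called lower was near the background. Expression Console values called 7 of them higher and 5 lower, where 8.38% of all its rows were called higher and 20.5% lower. Both of the strongest falls were in leukocyte sialoglycoproteins or adhesion receptors. Cd44, the hyaluronan receptor, read 9.15, 9.32 and 9.32 in BMDM and 5.02, 5.02 and 4.84 in BSM, 19.8-fold lower (limma adjusted p = 2.5e-08). Its BSM readings lay below the median row, so this fold is a ratio to readings that may be background. Spn, which encodes the galectin-1 ligand CD43, was 17.9-fold lower. The integrin chain Itga5 (1.77-fold) and the disulfide isomerase P4hb, a surface partner of galectin-9 (1.41-fold), were lower by less, and the call for P4hb was lost after a further quantile normalization (-0.14, adjusted p = 0.40).

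The 4 genes of this list with the highest differences were receptor genes. Havcr2, which encodes TIM-3, read 5.03, 5.29 and 4.98 in BMDM and 9.59, 9.59 and 9.72 in BSM, 23.2-fold higher (limma adjusted p = 3.0e-08). Its ligand gene Lgals9 differed by 1.31-fold. Mertk, a phagocytic receptor that binds galectin-3, was 140-fold higher, the T cell inhibitory receptor gene Lag3 15.3-fold and the lipid receptor gene Trem2 12.8-fold. The BMDM readings of Mertk (3.81, 4.11 and 3.998), Lag3 (5.12, 4.87 and 4.90) and Havcr2 lay below the median row of those arrays, so these folds are ratios to readings that may be background.

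Genes for partners at damaged membranes moved less. Of 17 measured, 2 (11.8%) were higher in BSM and 7 (41.2%) lower, with a median of -0.06, against 28.4%, 22.3% and 0.17 for all named genes. By Expression Console 0 of 13 were called higher and 6 lower, where 8.38% of all its rows were called higher and 20.5% lower. The ESCRT subunit gene Chmp4b was 2.60-fold lower (limma adjusted p = 1.5e-05), the mTOR anchor Lamtor1 1.85-fold, the autophagy gene Map1lc3b 1.82-fold and the autophagy receptor gene Tax1bp1 1.81-fold. The lysosomal amino acid sensor Slc38a9 (1.53-fold) and the autophagy receptor gene Optn (1.35-fold) were higher, but the first was not called from Expression Console values (0.22, adjusted p = 0.15), and the second was lost with centred arrays (0.24, adjusted p = 0.12), with quantile normalization (0.20) and without BMDM replicate 2 (0.39). Calcoco2, the gene of the receptor that galectin-8 is known to recruit in human cells, was dim, at 4.13, 3.95 and 4.02 in BMDM against 4.20, 4.38 and 4.05 in BSM, and did not pass. Trim16 was not matched.

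Each galectin gene was then set beside the nearest measured protein-coding genes on either side of it in RefSeq order, a comparison added after the galectin values had been seen. Lgals1, on chromosome 15, lies between Pdxp (0.12, not passed) and Nol12 (-0.43, limma adjusted p = 0.0055), so its difference of -5.69 stood apart from its neighbours. Lgals3, on chromosome 14, lies between Mapk1ip1l (-0.52) and Dlgap5, a mitotic spindle gene that differed by -4.04 (limma adjusted p = 1.0e-07). Lgals8 lies between Heatr1 (0.12) and Edaradd (0.37), and Lgals9 between Nos2 (0.16) and Ksr1 (0.23). Beside Lgals3bp, Timp2, an inhibitor of metalloproteases, differed by 3.39 and Cant1 by 0.14. Lgals4 neighbours Ech1 (-0.32) and the galectin gene Lgals7.

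**Figure D4:**
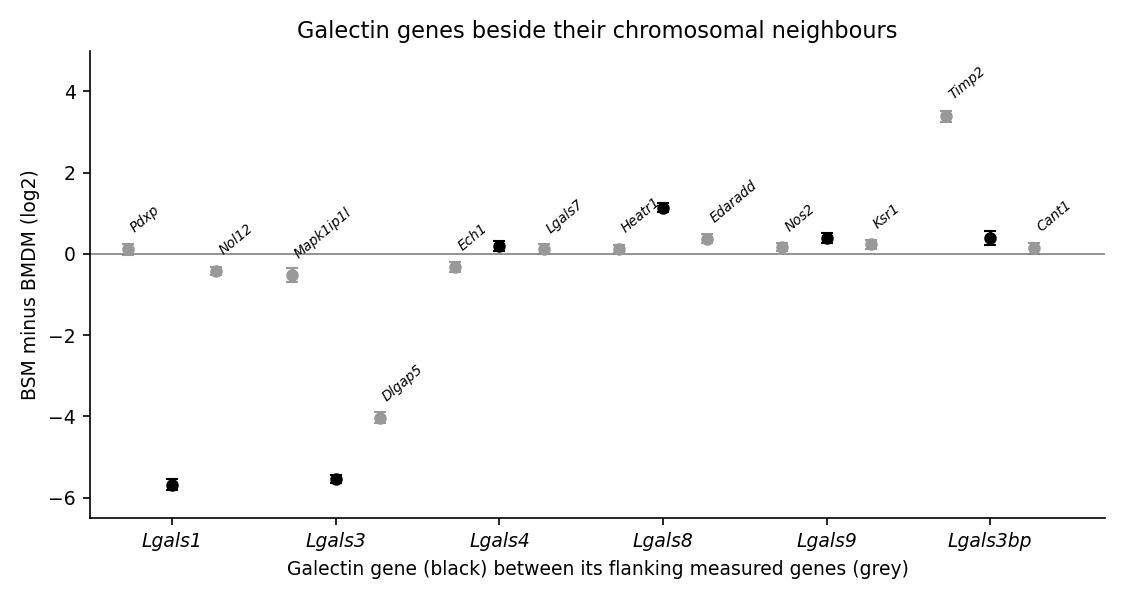
Log2 difference, BSM minus BMDM, of each galectin gene (black) and of its flanking measured genes in chromosomal order (grey), with bars for the limma SE. The fall of Lgals1 is not seen in Pdxp or Nol12, while Dlgap5 beside Lgals3 differs by -4.04 and Timp2 beside Lgals3bp by 3.39.

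The genes whose pattern was most like each galectin gene were found by the root mean square difference over the 6 arrays, after each gene was centred on its own mean. For Lgals1 these were the C-type lectin Clec12a (0.07, log2), the protease inhibitor Slpi (0.11) and Lgals3 itself (0.14). For Lgals3 they were Pdlim1 (0.06), Cytip (0.10) and Plp2 (0.14), all 3 called lower in BSM. Those nearest to Lgals8 were Dclk2 (0.04), Rap1gds1 (0.04) and Adgre1 (0.05), which encodes the macrophage antigen F4/80, all called higher. Lgals9 was nearest to Urad (0.05), Mos (0.06) and Slc25a34 (0.06). For Lgals3bp the nearest were Cbarp, Skint8 and Tbrg1 (0.06 to 0.08), and for Lgals4 Igfl3, Apobec3 and B3glct (each 0.05), none of which passed. The points of this measure are the same 6 arrays in 2 groups, so genes with a like difference between the cell types score as alike.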

How the data were processed

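Sorted BMDM and BSM were profiled on 6 Affymetrix Mouse Exon 1.0 ST arrays, 3 per cell type. The authors made the deposited Aroma values, linear intensity values per gene, with RMA background subtraction and quantile normalization, fitting probes by a log-additive model. The deposited Expression Console values are log2 values from RMA (genome build mm9 per the labels). Partek is named in the submitters' notes too. All per-sample columns were used. The versions of Aroma and Expression Console are not given in the sources used here.

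Rows were named through the platform annotation, with older symbols updated by RefSeq gene names. Aroma values were converted to log2, and BSM minus BMDM was tested with lmFit and eBayes (limma 3.58.1, R 4.3.3) across all genes, two-sided, without covariate or filter, with Benjamini-Hochberg adjustment over 21837 rows at 0.05. The steps were checked on simulated data. Single values were compared by exact permutation (SciPy 1.17.1). Named genes were the 6 galectin genes, the other galectin-fold genes, up to 4 called genes per direction in each of the other lists, and the 3 genes most like each galectin gene. The genes and lists were chosen with earlier results of these data known. The study's text calls the samples independently generated, and p-values measure the spread between these pools. The number of arrays limits the precision.

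Results were recomputed with the replicate number as a block, with a covariate for sex, without each array, from the Expression Console table, without rows dimmer than the median row, after a further quantile normalization, after centring arrays on their medians, with trended and robust eBayes, with the methods' t-test and with averaged rows of a gene. Using only Expression Console rows with a gene symbol was added after seeing the data.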

Additional observations from a re-analysis of the deposited data

Results flagged for a closer look

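Lgals3bp differed in direction between the pools of each sex. Between the female pools (replicate 1 of each cell type) it was lower in BSM by a log2 difference of -0.094, whereas between the male pools (replicates 2 and 3) it was higher by 0.62, with each male BSM pool above each male BMDM pool. The term for sex by cell type was 0.71 (unadjusted p = 0.045, limma adjusted p = 0.69), so the difference between the sexes did not pass. In the Expression Console table the Lgals3bp difference was -0.34 between the female pools and 0.44 between the male pools. There was 1 female pool per cell type, so sex and the other properties of replicate 1 cannot be told apart.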

How the results depend on the processing

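Lgals1, Lgals3 and Lgals8 kept their direction and their call under every alternative run for them, with adjusted p at most 0.0088. With single arrays left out, the log2 difference ran from -5.76 to -5.54 for Lgals1, -5.61 to -5.50 for Lgals3, 1.08 to 1.19 for Lgals8, 0.27 to 0.46 for Lgals9, 0.24 to 0.52 for Lgals3bp and 0.06 to 0.26 for Lgals4. Lgals9 lost its call with the replicate block (0.38, adjusted p = 0.051), the methods' t-test (0.38, adjusted p = 0.075), median centring (0.19) and the Expression Console table, with all rows or only those with a gene symbol (0.23 in both). Lgals3bp passed after quantile normalization again (0.70) and without BSM replicate 1 (0.52), and under no other alternative. Lgals4 changed sign with quantile normalization (-0.020) and median centring (-0.00011), without passing in either direction. The cause of these changes was not tested. Each galectin gene had 1 row, so the mean of a gene's rows changed no value.

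The count of called rows was 10838, against 6734 in the Expression Console table, 5756 among its rows with a gene symbol and 8491 to 10120 with an array left out. Rows called higher numbered 6120, against 1955 and 1611 in those tables, 3253 with median centring and 3342 without rows dimmer than the median row, where fewer rows are tested. The other galectin-fold genes called higher numbered 3 of 5, against 0 with median centring and 1 to 3 with an array left out. By Expression Console 0 of the 3 measured were called higher. Lgalsl and Grifin were not measured there, so their calls were not checked. The endomembrane partners called higher numbered 2 of 17, against 4 with quantile normalization and 0 of the 13 measured by Expression Console, where Optn was not measured. Surface partners called lower numbered 5, against 3 with quantile normalization. Glycan enzymes and transporters called higher numbered 16 of 29, against 9 of the 27 measured by Expression Console.

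Arrays with the same replicate number did not deviate together (correlations of 0.065, 0.0021 and 0.011), so the numbers were not taken as pairs. The replicate block gave 10319 called rows and ended no galectin call other than that of Lgals9.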
